A study of Saccharomyces cerevisiae with 30 samples.

Results

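The strain YKH104 was compared with the strain YKH105 of Saccharomyces cerevisiae, budding yeast, on 2 of the 30 arrays of a series whose title names the coactivator complexes TFIID and SAGA. The 2 arrays were chosen because the labels give YKH104 in one channel and YKH105 in the other, once in each dye orientation, and 3 further arrays that carried YKH105 in both channels served as the background and are called self arrays. All these cells grew at 26 °C in CSM-Trp-His medium to an OD600 of about 0.8 and were then held at 37 °C for 45 min, so YKH104 and YKH105 went through the same heat shift. The genotypes of the strains are not given in the sources used here. Arrays of YKH107 and YKH106, 2 each, were used to show where YKH104 differed, and these strains were also measured against YKH105 after the shift to 37 °C.

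SAGA is a large coactivator complex that carries a histone acetyltransferase and a deubiquitinating module. Its subunit Spt3 contacts the TATA-binding protein (TBP) and takes part in placing it at promoters. TFIID is the other main complex that brings TBP to yeast promoters, and genes that respond to stress or to nutrients are known for leaning on SAGA, housekeeping genes for leaning on TFIID. A shift to 37 °C is a mild heat shock for yeast, in which chaperone genes are induced and ribosomal protein genes are repressed.

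Each value is a log2 ratio, so 1 unit is a 2-fold difference, and each array was set to 0 at its median spot. The labels do not state the direction. It was read as likely YKH104 over YKH105, because the large negative value of SPT3 was taken to mean less SPT3 transcript in YKH104, and it is an assumption behind every sign given here. Both dye orientations gave SPT3 the same sign, so the ratios were taken as already turned to 1 direction. Of 6400 spots on the array, between 6364 and 6388 gave a value on each of these 5 arrays, and the 5578 spots that carried 1 gene gave 5547 genes. Over 5526 genes the 2 YKH104 arrays had a Pearson correlation of 0.734, a description across genes, which are not independent. The second YKH104 array also correlated with self array 3 (0.362) and with self array 2 (-0.215), which hold no strain difference. Its array number in the titles, 142, is next to the 143 of self array 3. The array numbers of the first YKH104 array and self array 2 were 86 and 87, and their correlation lay between -0.024 and 0.122, as did those of the other pairs of a YKH104 array and a self array.

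SPT3 itself (YDR392W) had by far the most extreme value of the comparison. Its log2 ratios were -8.10 and -8.57 on the YKH104 arrays, against 0.05, 0.145 and 0.164 on the YKH105 self arrays, and the fitted log2 was -8.33 (SE 0.29, n = 2 arrays, adjusted p = 1.51e-08). The next lowest fitted value among called genes was -2.48, for KKQ8. Of its neighbours on the chromosome, IAT4 had a fitted log2 of 0.21 (adjusted p = 0.16), SHE9 one of -0.11 (adjusted p = 0.896) and RPT3, a proteasome ATPase gene, one of 0.70 (adjusted p = 0.443). None of the 3 passed the test, and SUF3, the tRNA gene next to IAT4 on the side away from SPT3, had no spot. Most of the other 13 SAGA subunit genes stayed near the median gene. Their fitted log2 values lay between -0.44 for CHD1, which encodes a chromatin remodeller, and 0.42 for SGF11 of the deubiquitinating module, and GCN5, which encodes the acetyltransferase, was at 0.16 (adjusted p = 0.654). None of these 13 passed the test.

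Across the genome, 746 of 5504 genes tested differed between YKH104 and YKH105 at an adjusted p under 0.05, or 13.6%. Of these, 356 (6.47%) were higher in YKH104, with a median log2 of 0.60, and 390 (7.09%) were lower, with a median of -0.75. Large differences were mostly on the lower side, where 105 genes differed more than 2-fold, against 28 on the higher side. Both YKH104 arrays lay on the same side of 0 for all 746 genes, but the calls rest on these same 2 arrays, so this is no separate support. Of the higher genes 324 lay above all 3 self arrays on both YKH104 arrays, and of the lower genes 382 lay below all of them. Over all 5506 genes with the 5 values, 21.7% lay above and 25.1% below in this way, 46.8% together. The labels do not state whether the arrays hold separate cultures, so these p-values rest on the spread from array to array. That spread was estimated per gene over 21 arrays of several strains, not from the YKH104 arrays alone. With 2 YKH104 arrays the median SE was 0.173. The count rests on both arrays and on the centring: without array 1 of YKH104 72 genes were called, without array 2 106, and on the deposited scale, which moved the median gene by 0.11, 2 genes were higher and 6 lower.

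**Figure D1:**
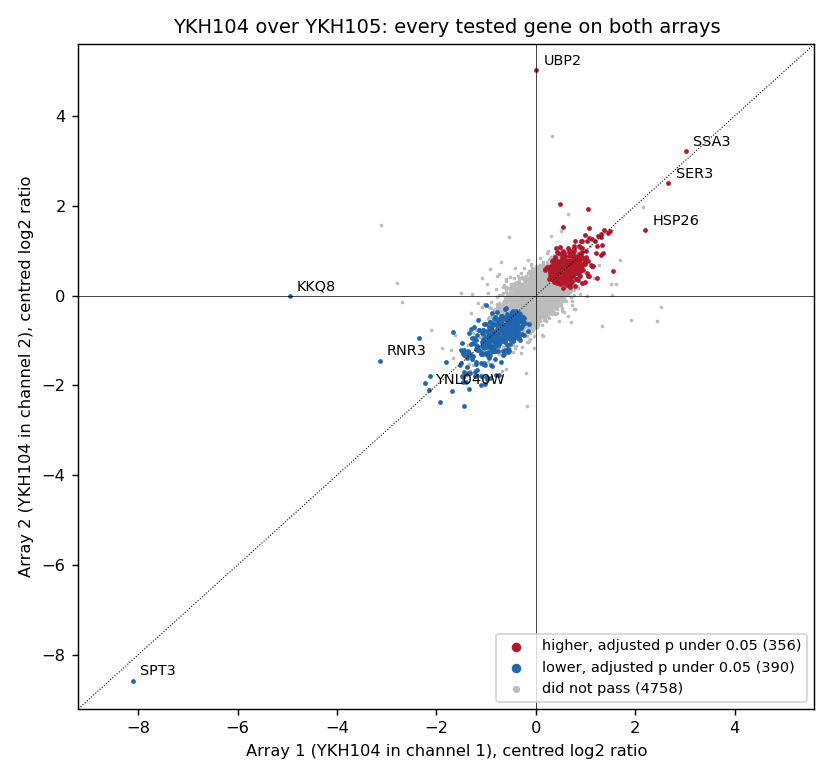
Centred log2 ratio of YKH104 over YKH105 on array 1 (x axis) and array 2 (y axis) for each of the 5504 tested genes, with 356 higher genes in red, 390 lower genes in blue and the others in grey. SPT3 stands alone at the lower left, most called genes lie near the dotted line of equal values, and UBP2 and KKQ8 lie on an axis because 1 array alone carries their value.

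The plot of both arrays shows where the arrays parted. The median gap between them was 0.183 log2 units over all tested genes, and 46 genes had a gap over 1, of which 8 were called. The 3 called genes with the widest gap were UBP2, KKQ8 and RNR3. UBP2, a ubiquitin protease gene, had log2 ratios of 0.01 and 5.01, so its fitted 2.51 (SE 0.66, adjusted p = 0.0272) rested on array 2, and without that array it was 0.16 (adjusted p = 0.798). KKQ8, a protein kinase gene, had -4.95 and -0.02, so its fitted -2.48 (SE 0.73, adjusted p = 0.0435) rested on array 1, and without that array it was -0.12 (adjusted p = 0.951).

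The gene with the highest fitted value was SSA3, which encodes a stress-inducible Hsp70 chaperone. It had log2 ratios of 3.01 and 3.21 on the YKH104 arrays, against 0.13, -0.295 and 0.27 on the self arrays, a fitted difference of 3.11 (SE 0.24, adjusted p = 1.95e-05) or 8.64-fold. SER3, which encodes the 3-phosphoglycerate dehydrogenase that opens serine synthesis, had 2.67 and 2.50 on the YKH104 arrays, against -0.02, 0.16 and -0.03 on the self arrays, with a fitted 2.58 (SE 0.15, adjusted p = 1.46e-06). HSP26, a small heat shock protein gene, had 2.20 and 1.45 on the YKH104 arrays, against -0.06, 0.35 and -0.06 on the self arrays, with a fitted 1.82 (SE 0.28, adjusted p = 0.00193). Genes were named by size only if both YKH104 arrays exceeded all self arrays in size, so these 3 genes lay clear of them by choice. SSA3, SER3 and UBP2 were the 3 called genes that were more than 4-fold higher.

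A lower tier of higher genes lay between 1.17 and 1.49 and was of mixed function. ATG8, whose ubiquitin-like product builds autophagosomes, had log2 ratios of 1.499 and 1.44 on the YKH104 arrays, against 0.01, 0.12 and 0.10 on the self arrays (fitted 1.47, adjusted p = 0.00238). HEK2, an RNA-binding protein gene, had 1.44 and 1.40 on the YKH104 arrays, against 0.02, 0.28 and 0.11 on the self arrays (fitted 1.42, adjusted p = 0.000252). PEX19, which serves the import of peroxisomal membrane proteins, had 1.31 and 1.37 on the YKH104 arrays, against -0.07, -0.27 and 0.34 on the self arrays (fitted 1.34, adjusted p = 5.51e-05). In this tier the YKH104 arrays lay close to each other, apart from SIP18, SNT309 and GRE3. TMA17, a proteasome assembly chaperone gene, was at 1.28, AHC2, which encodes a subunit of the ADA acetyltransferase complex, at 1.23, and COX17, a copper chaperone gene for cytochrome oxidase, at 1.20. The splicing factor gene SNT309 was at 1.29, the gene FPT1 at 1.30, the aldose reductase gene GRE3 at 1.17 and CYC7, which encodes the minor cytochrome c, at 1.19. SIP18, a desiccation stress gene, had 1.05 and 1.93 on the YKH104 arrays, against 0.55, -0.695 and 0.64 on the self arrays, and its fitted 1.49 no longer passed when the self arrays were the comparison (adjusted p = 0.0798).

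On the lower side, RNR3 followed SPT3 among the genes for which both YKH104 arrays lay beyond all self arrays. RNR3, which encodes the damage-inducible large subunit of ribonucleotide reductase, had log2 ratios of -3.14 and -1.45 on the YKH104 arrays, against 0.04, -0.01 and -0.06 on the self arrays (fitted -2.29, SE 0.35, adjusted p = 0.00245), and without array 1 its -1.33 did not pass (adjusted p = 0.101). YNL040W had -2.15 and -2.10 on the YKH104 arrays, against -0.215, -0.22 and -0.03 on the self arrays (fitted -2.12, SE 0.14, adjusted p = 3.71e-06). FDC1, a ferulic acid decarboxylase gene, had -2.23 and -1.95 on the YKH104 arrays, against -0.13, 0.05 and -0.07 on the self arrays (fitted -2.09, SE 0.12, adjusted p = 1.46e-06). For YNL040W and FDC1 the arrays of YKH104 were close to each other and far below the self arrays. BNA5, which encodes kynureninase of NAD synthesis, was at -1.96, HTC1 at -2.15, the zinc finger protein gene STP4 at -1.95 and YPS3, a cell surface aspartic protease gene, at -1.90. The remaining 7 of the 15 lowest genes lay between -1.71 and -1.64. They were the Cdk inhibitor gene CIP1, the glucose transporter gene HXT3, the cell wall protein gene CWP1, the mating gene FIG1, the protein kinase genes YPK2 and RCK1 and the phosphatase gene PHM8. FIG1 had -2.36 and -0.95 on the YKH104 arrays, against 0.08, -0.18 and 0.25 on the self arrays, so its size differed between the YKH104 arrays.

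The lists of TFIID genes and of TBP and its regulators held 14 tested genes each. Of 14 TFIID subunit genes 1 rose, or 7.14% against 6.47% of all genes, so the share was close to that of all genes. This gene, TAF11, had log2 ratios of 0.73 and 0.51 on the YKH104 arrays, against -0.12, 0.22 and 0.29 on the self arrays (fitted 0.62, SE 0.13, adjusted p = 0.0076). TAF11 did not pass when the self arrays were the comparison (adjusted p = 0.096). The other 13 had fitted values from -0.10 for TAF6 to 0.50 for TAF7 and did not pass. SPT15, the TBP gene, was at 0.13 (adjusted p = 0.636). Of the 14 genes of TBP and its regulators 1 rose (7.14%) and 2 fell (14.3%), against 6.47% and 7.09% of all genes. Without array 1 of YKH104 the list medians were 0.125 for TFIID and 0.25 for TBP and its regulators. Without array 2 they were 0.324 and 0.069. BDF2, which encodes a bromodomain protein related to the TFIID-associated Bdf1, had -1.44 and -1.33 on the YKH104 arrays, against -0.14, 0.01 and 0.14 on the self arrays (fitted -1.39, SE 0.24, adjusted p = 0.00342), whereas BDF1 was at 0.02 (adjusted p = 0.973). BUR6 and NCB2, which encode the partners of the TBP-binding repressor NC2, had values of opposite sign. They were 0.75 for BUR6 (adjusted p = 0.00887) and -0.41 for NCB2 (adjusted p = 0.0347). With the self arrays as the comparison neither passed (adjusted p = 0.0589 and 0.0905), whereas BDF2 did (adjusted p = 0.00357). Without the dye term BUR6 passed (adjusted p = 0.008) and NCB2 did not (adjusted p = 0.0923). MOT1, the ATPase gene that removes TBP from DNA, was at -0.58 and did not pass (adjusted p = 0.0814).

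Genes known from the literature to need SAGA mostly lay below the median gene but seldom passed. Of 12 such loci, 1 fell and none rose, against 7.09% and 6.47% of all genes tested, and their median log2 was -0.36. PHO5, the repressible acid phosphatase gene, had -0.96 and -1.14 on the YKH104 arrays, against 0.12, 0.185 and -0.02 on the self arrays (fitted -1.05, SE 0.16, adjusted p = 0.00172). Others that did not pass were HIS3 at -0.50 (adjusted p = 0.0829) and PHO84, a phosphate transporter gene, at -0.82 (adjusted p = 0.185). INO1, the inositol synthesis gene, was on the other side at 0.78 and did not pass either (adjusted p = 0.098).

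Of the heat shock and chaperone genes that differed, most were higher in YKH104 than in YKH105, and both strains had been shifted to 37 °C. Of 30 members tested 9 rose and 1 fell, against 6.47% and 7.09% of all genes, and 23 lay above all self arrays, against 21.7% of all genes. The list's median was 0.425 and 0.485 on the YKH104 arrays, against -0.17, -0.40 and -0.065 on the self arrays. SSA4, another inducible Hsp70 gene, had log2 ratios of 1.37 and 1.47 on the YKH104 arrays, against -0.24, -0.74 and -0.21 on the self arrays (fitted 1.42, SE 0.21, adjusted p = 0.00169). CPR6, a cyclophilin gene that works with Hsp90, was at 1.08, and the mitochondrial chaperonin genes HSP60 and HSP10 were at 0.89 and 0.83. The small heat shock protein gene HSP42 was at 0.84, and HSP31 was the member that fell, at -0.65 (adjusted p = 0.0123). Several of the most abundant heat shock transcripts did not pass: HSP104 was at 0.43 (adjusted p = 0.47), HSP82 at 0.27 (adjusted p = 0.649) and SSA1 at 0.11 (adjusted p = 0.886). The heat shock genes also moved on self array 2, where their median was -0.40 with the same strain in both channels, and the part of this in the result was not tested. Without array 1 of YKH104, 1 member was called higher, and without array 2, 4 were.

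Proteasome genes were the list with the most members called higher. Of 35 tested 20 rose and none fell, against 6.47% and 7.09% of all genes, and all 35 had a fitted log2 above 0, from 0.24 to 0.905. The list's median was 0.60 and 0.57 on the YKH104 arrays, against -0.08, 0.01 and 0.03 on the self arrays, and 31 members lay above all self arrays, against 21.7% of all genes. PRE6, a subunit gene of the catalytic core, had 1.05 and 0.76 on the YKH104 arrays, against 0.40, 0.255 and -0.05 on the self arrays (fitted 0.905, SE 0.14, adjusted p = 0.00232). UBI4, the stress-inducible polyubiquitin gene, was at 0.84, the core subunit genes PRE7 and PRE2 at 0.84 and 0.72, and RPN4, which encodes the transcription factor of proteasome genes, at 0.56 (adjusted p = 0.0217). These values were small beside those of SSA3 or SER3 and differed in size between members. All fitted values had the same sign, and the list's median was alike on the 2 YKH104 arrays. With 1 YKH104 array at a time the medians were 0.53 and 0.585, and 0 and 2 members passed.

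**Figure D2:**
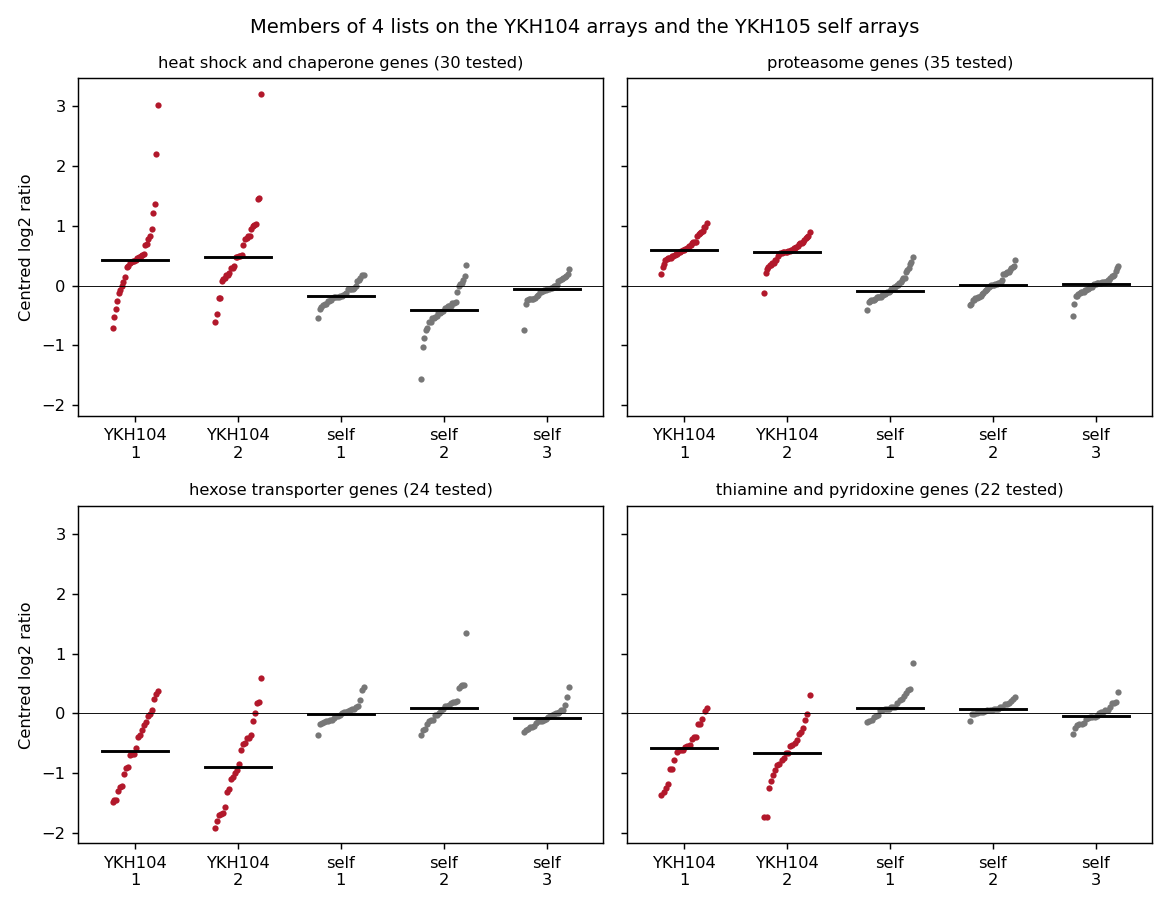
Centred log2 ratios of every tested member of 4 gene lists on the 2 YKH104 arrays (red) and the 3 YKH105 self arrays (grey), with a bar at the median of each array. The heat shock and proteasome medians lie between 0.425 and 0.60 on the YKH104 arrays and the hexose transporter and thiamine medians between -0.90 and -0.59, whereas the self arrays lie nearer 0 in each panel but for the heat shock genes on self array 2.

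General stress genes were mixed. Of 44 tested 9 rose and 3 fell, against 6.47% and 7.09% of all genes, with a median of 0.20, and with array 1 or array 2 of YKH104 left out 1 member passed as higher and 0 as lower. Beside HSP26, SIP18 and GRE3, GDB1, which encodes the glycogen debranching enzyme, had log2 ratios of 0.49 and 2.03 on the YKH104 arrays, against 0.11, -0.38 and -0.17 on the self arrays (fitted 1.26, adjusted p = 0.0197), and the catalase gene CTT1 was at 0.69 (adjusted p = 0.0467). Those that fell were ALD4, the mitochondrial aldehyde dehydrogenase gene, at -1.49 (adjusted p = 0.00746), the glucokinase gene GLK1 at -1.37 (adjusted p = 0.00437) and GAC1, which encodes a regulatory subunit of a protein phosphatase that acts on glycogen synthase, at -0.96. HSP12, an abundant stress transcript, was at 0.08 and did not pass (adjusted p = 0.913).

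In the lists of mitochondrial ribosomal protein, respiratory chain and TCA and glyoxylate cycle genes, the members that were called were higher in YKH104. Of 66 mitochondrial ribosomal protein genes 17 rose and none fell, against 6.47% and 7.09% of all genes, with a median of 0.35. Above all self arrays lay 43 of them, against 21.7% of all genes. RSM27, a small subunit gene, had 0.93 and 1.06 on the YKH104 arrays, against 0.11, 0.06 and 0.32 on the self arrays (fitted 0.995, SE 0.11, adjusted p = 0.000303), and MRPL33, MRPL40 and MRPL27 of the large subunit were at 0.74, 0.73 and 0.71. Of 34 nuclear genes of the respiratory chain 5 rose and none fell, and 1 passed with array 1 or array 2 of YKH104 left out. CYC7 led them, followed by QCR9 and QCR2 of the cytochrome bc1 complex at 0.695 and 0.605 and by ATP7 of the ATP synthase at 0.52. Of 26 genes of the TCA and glyoxylate cycles 3 rose: SDH2 at 1.15 and SDH1 at 0.42, both of succinate dehydrogenase, and CIT2, the peroxisomal citrate synthase gene, at 0.895. Cytoplasmic ribosomal protein genes lay on the other side. Of 134 tested 19 fell and 1, RPS13 at 0.33, rose, with a median of -0.33, and 89 lay below all self arrays, against 25.1% of all genes. RPL6B was at -0.90 and RPL6A at -0.73, a near-identical pair whose spots may share signal. The list's median was -0.30 and -0.35 on the YKH104 arrays, against -0.137, 0.098 and -0.037 on the self arrays. Both ribosomal protein lists were filled by gene symbol, so they may hold genes of other function. MRP8, which rose in the mitochondrial list, and RPP1, which was not called in the cytoplasmic list, may be such genes. With 1 YKH104 array at a time 0 of the cytoplasmic and 2 of the mitochondrial ribosomal protein genes passed.

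Hexose transporter genes were lower in YKH104 where they differed. Of 24 genes of hexose transport and glucose sensing 10 fell and none rose, against 7.09% and 6.47% of all genes, and the list's median was -0.63 and -0.90 on the YKH104 arrays, against -0.01, 0.09 and -0.08 on the self arrays. HXT3, a low-affinity glucose transporter gene, had -1.46 and -1.92 on the YKH104 arrays, against -0.10, -0.28 and -0.28 on the self arrays (fitted -1.69, SE 0.24, adjusted p = 0.00126). HXT1, the transporter gene of high glucose, had -1.23 and -1.795 on the YKH104 arrays, against -0.155, 0.12 and -0.16 on the self arrays (fitted -1.51, SE 0.145, adjusted p = 9.84e-05). Both genes lay below all self arrays on both YKH104 arrays. HXT16 was at -1.575, the high-affinity transporter genes HXT7, HXT6 and HXT2 at -1.18, -1.15 and -0.84, and MTH1, which encodes a repressor of HXT genes, at -1.23. HXT4 was at -1.44 with a wide error and did not pass (SE 0.61, adjusted p = 0.148), and the glucose sensor genes SNF3 and RGT2 were at -0.04 (adjusted p = 0.962) and 0.28 (adjusted p = 0.48). HXT6 and HXT7, like HXT13, HXT16 and HXT17, are close copies, and their spots may not separate them. With YKH104 array 1 or array 2 left out, 3 members of the list passed. Among 23 glycolysis and fermentation genes 1 fell, the alcohol dehydrogenase gene ADH4 at -0.65 (adjusted p = 0.0494), and none rose.

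Thiamine and pyridoxine genes formed the list with the largest share lower after the alpha-specific genes. Of 22 tested 11 fell and none rose, against 7.09% and 6.47% of all genes. Below all self arrays lay 19 members, against 25.1% of all genes. With array 1 or array 2 of YKH104 left out 4 passed, and with the identical columns kept 5 did. The list's median was -0.59 and -0.66 on the YKH104 arrays, against 0.09, 0.065 and -0.05 on the self arrays. SNZ2 and SNZ3, genes of pyridoxine synthesis, were at -1.53 and -1.55, and their neighbours SNO2 and SNO3 at -1.15 and -1.10. SNZ3 had -1.37 and -1.73 on the YKH104 arrays, against 0.10, 0.18 and 0.05 on the self arrays (adjusted p = 0.000926). THI4, which makes the thiazole moiety of thiamine, was at -0.545 (adjusted p = 0.0494), and PHO3, the thiamine-regulated acid phosphatase gene, at -0.98 (adjusted p = 0.0013). SNZ2 and SNZ3, SNO2 and SNO3, and THI5, THI11, THI12 and THI13 are sets of near-identical copies, so these 11 calls stand for fewer separate transcripts.

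**Figure D3:**
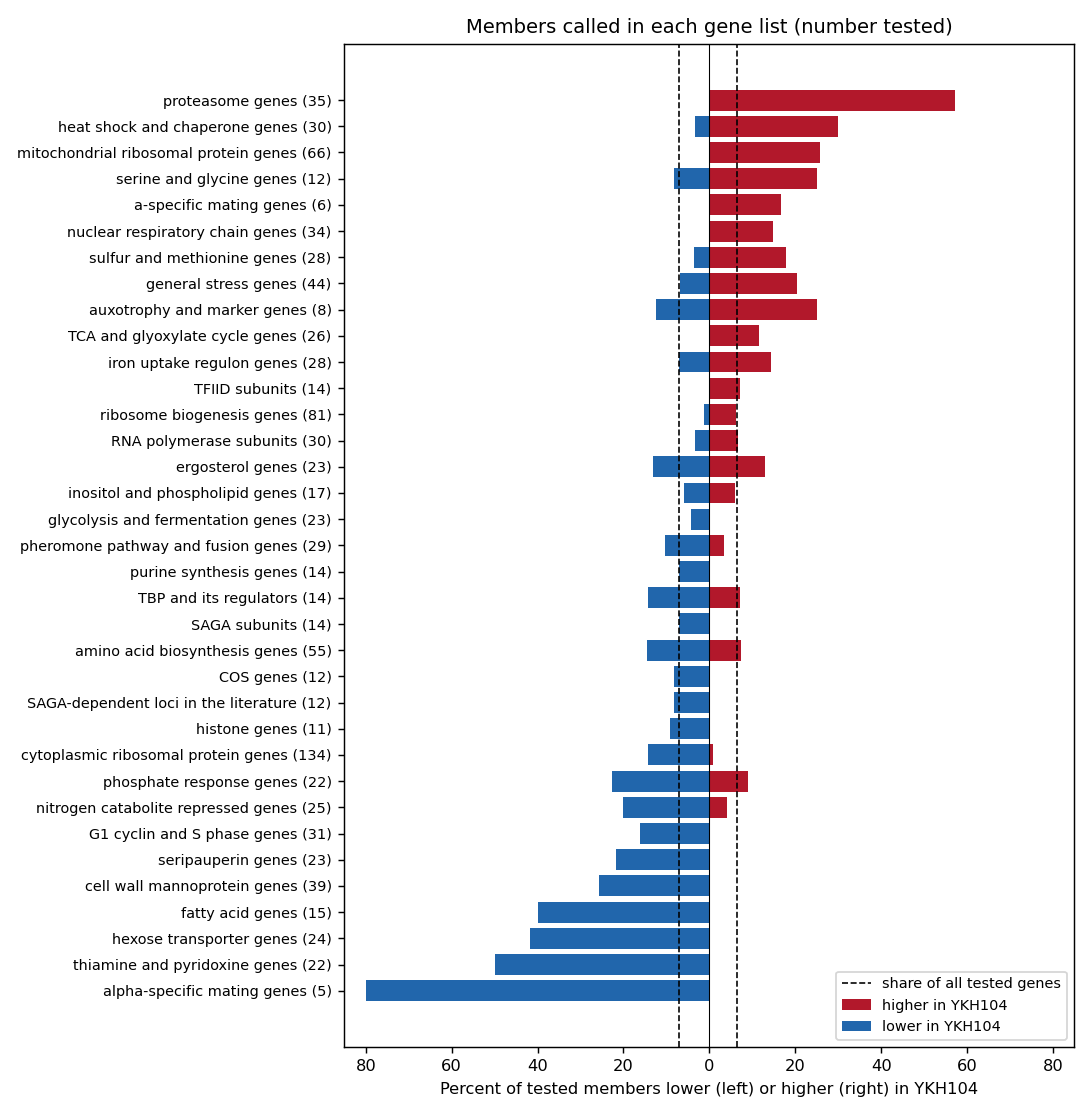
Percent of the tested members of each gene list that were lower (blue, to the left) or higher (red, to the right) in YKH104 than in YKH105 at an adjusted p under 0.05, with the number tested in brackets and dashed lines at 7.09% lower and 6.47% higher over all genes. Proteasome genes have the longest red bar, alpha-specific mating, thiamine, hexose transporter and fatty acid genes the longest blue bars, and SAGA, TFIID, ribosome biogenesis and RNA polymerase genes do not reach far beyond the lines.

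Fatty acid genes were lower where they differed. Of 15 tested 6 fell and none rose, against 7.09% and 6.47% of all genes, with a median of -0.53, and with 1 YKH104 array at a time 0 and 1 passed. FAS1, which encodes a subunit of fatty acid synthase, had -1.03 and -1.05 on the YKH104 arrays, against -0.05, 0.09 and -0.195 on the self arrays (fitted -1.04, SE 0.16, adjusted p = 0.00194). FAS2, the gene of its other subunit, was at -0.69, the acyl-CoA synthetase genes FAA1 and FAA4 were at -0.84 and -0.51, and OLE1, the desaturase gene, was at -0.74 (adjusted p = 0.0267). Of 23 ergosterol synthesis genes 3 rose and 3 fell, among them MVD1 at 0.76, ERG24 at 0.64, ERG26 at -0.65 and ERG1 at -0.49. The inositol and phospholipid list had 1 member of 17 on each side, CHO1, the phosphatidylserine synthase gene, at 0.595 and the inositol transporter gene ITR2 at -0.72.

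Cell wall mannoprotein genes that differed were lower. Of 39 tested 10 fell and none rose, against 7.09% and 6.47% of all genes, with a median of -0.37 and -0.655 on the YKH104 arrays, against 0.05, 0.30 and -0.25 on the self arrays, so self array 3 lay nearest to the YKH104 arrays. CWP2 had -1.30 and -1.335 on the YKH104 arrays, against -0.21, 0.53 and -0.245 on the self arrays (fitted -1.32, SE 0.25, adjusted p = 0.00556). SCW10, a cell wall glucanase-like gene, was at -1.15, PST1 at -1.05 and the chitinase gene CTS1 at -0.93. With 1 YKH104 array at a time 1 member passed. Of the 23 seripauperin (PAU) genes, a family of cell wall proteins near chromosome ends, 5 fell, with a median of -0.74. Below all self arrays lay 21 of them, against 25.1% of all genes. Their median was -0.749 without array 1 of YKH104 and -0.638 without array 2. Their copies are so alike that the spots may not separate them. COS10 at -1.33 (adjusted p = 0.0026) was the only member of 12 in the COS family that passed.

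Among mating genes, the alpha-specific list had most of its members called lower in YKH104. In RNA of whole cultures, fewer cells of a type and less RNA per cell cannot be told apart. Of the 5 alpha-specific genes 4 fell: MF(ALPHA)2, an alpha-factor gene, at -1.28, SAG1, the alpha-agglutinin gene, at -1.16, AFB1 at -0.63 and STE3, the a-factor receptor gene, at -0.51. Their adjusted p-values lay between 0.0281 and 0.0428, and all 5 lay below all self arrays on both YKH104 arrays, against 25.1% of all genes. The share called lower over all genes was 7.09%, and with 1 YKH104 array at a time 0 of these genes passed, with the identical columns kept 2. Of the 6 a-specific genes tested 1 rose, against 6.47% of all genes. It was STE2, the alpha-factor receptor gene, at 0.49 (adjusted p = 0.0434), which did not pass when the self arrays were the comparison (adjusted p = 0.106). MFA1, an a-factor gene, had 2.15 and 1.98 on the YKH104 arrays but also 1.87 on self array 2, and did not pass (adjusted p = 0.0551). Of 29 genes of the pheromone pathway and of cell fusion 3 fell (10.3%) and 1 rose (3.45%), against 7.09% and 6.47% of all genes. AGA1, the a-agglutinin anchor gene, was at -1.18, the fusion gene PRM1 at -1.10 and STE18, the gamma subunit gene of the pheromone G protein, at 0.665.

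In the nutrient and growth lists the counts are to be read against 6.47% higher and 7.09% lower over all genes, and with 1 YKH104 array at a time 0 to 2 members of a list passed in each direction. Of 25 genes under nitrogen catabolite repression 5 fell and 1 rose, led by MEP1, an ammonium permease gene, at -1.16 and by DAL1, DAL4 and DAL3 of allantoin use at -1.11, -0.81 and -0.75, with the proline use gene PUT2 at 0.71 on the other side. Of 55 amino acid synthesis genes 8 fell and 4 rose, among them HIS4 at -1.30, ARG3 at -1.21 and LYS1 at 0.76. LEU2 was at 1.11, URA3 at 0.65 and TRP1 at -0.73, all 3 called, and these are common selection markers whose state in the strains is not given. Among 12 serine and glycine genes SER3, SER33 at 0.845 and SER2 at 0.37 rose, and SRY1, which breaks down 3-hydroxyaspartate, fell at -1.03 (adjusted p = 0.00169). Sulfur and methionine genes had 5 of 28 higher and 1 lower, with MHT1 at 0.77 and the permease genes MUP3 and MUP1 at 0.68 and 0.485. Phosphate response genes had 5 of 22 lower and 2 higher, with PHM8 at -1.64 and PHO12 at -0.78. Iron uptake genes had 4 of 28 higher and 2 lower, with SMF3 at 0.79, the siderophore transporter gene ARN1 at 0.78 and the copper chaperone gene ATX1 at -0.83. Of 31 G1 cyclin and S phase genes 5 fell and none rose, among them CLN2 at -1.32, CLN1 at -0.84 and RNR1, the main large subunit gene of ribonucleotide reductase, at -0.92. Of 11 histone genes 1 fell, the linker histone gene HHO1 at -0.95 (adjusted p = 0.000252). Of 81 ribosome biogenesis genes 5 rose and 1 fell, of 30 RNA polymerase subunit genes 2 rose and 1 fell, and of 14 purine synthesis genes 1 fell, MTD1 at -0.515.

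YKH107 had an SPT3 value like that of YKH104. SPT3 had log2 ratios of -8.10 and -8.57 on the YKH104 arrays, against -7.505 and -8.965 on the YKH107 arrays, and the difference of the fitted values was -0.10 (SE 0.415, adjusted p = 0.922). Against YKH105, 13.6% of genes were called in YKH104, against 48.4% in YKH107 (23.5% higher and 24.9% lower). The 2 strains were measured against the same YKH105 reference, so the genes were set against each other in 1 contrast. In that contrast 477 of 5490 genes (8.69%) were higher in YKH104 and 339 (6.17%) lower, 14.9% together. On the deposited scale the split was 1359 higher and 4 lower, since centring moves the medians of these arrays, so only the relative order of genes is read here.

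Among genes called in YKH104 itself, the iron transporter gene ARN1 differed most. It had 0.875 and 0.68 on the YKH104 arrays, against 3.44 and 3.63 on the YKH107 arrays (difference -2.76, SE 0.22, adjusted p = 9.56e-05). STE2 had 0.58 and 0.39 on the YKH104 arrays, against 2.965 and 3.10 on the YKH107 arrays (difference -2.55, SE 0.20, adjusted p = 9.56e-05). HSP26 had 2.20 and 1.45 on the YKH104 arrays, against 4.14 and 4.25 on the YKH107 arrays (difference -2.37, SE 0.39, adjusted p = 0.00364). These 3 genes were higher than in YKH105 in both strains, and much less so in YKH104. On the lower side OLE1 had -0.85 and -0.64 on the YKH104 arrays, against -2.86 and -3.44 on the YKH107 arrays (difference 2.41, SE 0.275, adjusted p = 0.000577). FAA4 and RNR1 differed in the same way, with differences of 2.32 and 2.04. YHR022C had -0.45 and -0.65 on the YKH104 arrays, against 1.77 and 1.40 on the YKH107 arrays (difference -2.135, SE 0.18, adjusted p = 0.000144), so its sign was opposite in the 2 strains. By list, 15 of 30 G1 cyclin and S phase genes and 6 of 15 fatty acid genes were higher in YKH104 than in YKH107, against 8.69% of all genes. Lower were 12 of 28 sulfur and methionine genes and 9 of 28 iron uptake genes, against 6.17% of all genes. Of 35 proteasome genes 1 differed between the strains and of 34 respiratory chain genes 1 did, against 14.9% of all genes.

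YKH106 lay at the other end, with 1.09% of genes called against YKH105 (0.636% higher and 0.455% lower). SPT3 was at -1.12 and -0.99 on its arrays and did not pass (adjusted p = 0.152). The 2 YKH106 arrays had a Pearson correlation of 0.292 over genes, against 0.734 for YKH104 and 0.923 for YKH107. Set against YKH106, 1 of 5486 genes was higher in YKH104 (0.0182%) and 8 were lower (0.146%), 0.164% together, while 325 had an unadjusted p under 0.05. The higher gene was SER3, with 2.67 and 2.50 on the YKH104 arrays, against 1.39 and 1.11 on the YKH106 arrays (difference 1.335, SE 0.21, adjusted p = 0.0321). Among the lower genes SPT3 differed by -7.28 (adjusted p = 3.98e-06) and YNL040W by -1.72 (SE 0.19, adjusted p = 0.00324), with -2.15 and -2.10 on the YKH104 arrays, against -0.37 and -0.43 on the YKH106 arrays. PHM8 had -1.47 and -1.80 on the YKH104 arrays, against 0.05 and -0.29 on the YKH106 arrays (difference -1.52, SE 0.23, adjusted p = 0.0321). ARO5 and HXT1 differed by -1.36 and -1.31. The other genes lower than in YKH106, named after their values were seen, were FDC1, PHO3 and TNA1. Most genes called in YKH104 against YKH105 were thus not shown to differ between YKH104 and YKH106.

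**Figure D4:**
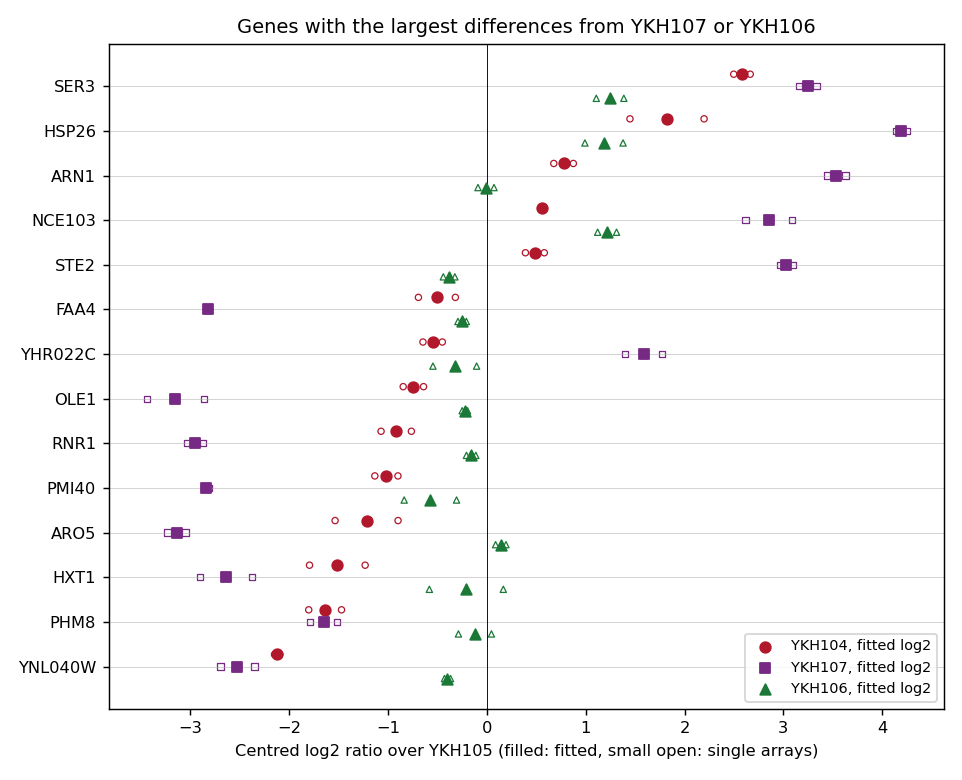
Centred log2 ratios over YKH105 for the genes, other than SPT3, with the largest differences of YKH104 (red circles) from YKH107 (purple squares) or YKH106 (green triangles), as fitted values (filled) and single arrays (small open symbols). YKH107 lies at least as far from 0 as YKH104 for all genes shown, nearest for PHM8 at -1.64 in YKH104 and -1.65 in YKH107, and YHR022C is the 1 gene with opposite signs in YKH104 and YKH107.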

How the data were processed

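Each spot of an array has 1 log2 ratio between its channels, made and deposited by the authors. GenePix Pro 4.0 and a 4000A scanner are named per the labels' protocols, and the normalization, the intensities and the genome build are not given in the sources used here. Platform annotation named 1 gene for 5578 spots and none for 822, and 5573 matched the RefSeq gene table (R64). Each array was centred on its median and spots of a gene were averaged. A linear model with 1 term per strain and temperature and a gene-wise dye term was fitted to 21 arrays with limma 3.58.1 in R 4.3.3 (lmFit, eBayes), without self arrays and without 2 columns of other strains that held identical values. The residual degrees of freedom were 9 and the prior ones 2.88. Genes with a value on both YKH104 arrays and on at least 18 arrays were tested, p-values were adjusted by Benjamini-Hochberg over all of them, and 0.05 was the threshold. The scripts were tested on simulated data. Genes are named if they were among the 15 highest or lowest on both arrays beyond 0.5 and all self arrays, SPT3 and its neighbours, SAGA, TFIID and TBP genes, up to 4 called members of a list, the 3 called genes with arrays farthest apart, or up to 5 each way in a contrast; other members named in passing are examples chosen after their values were seen. The members and lists were chosen with earlier results of these data known, so list counts are descriptions. The alternatives were the deposited scale, no dye term, only arrays against YKH105, the self arrays as the comparison, the self array of the next array number subtracted, 2 other filters, the identical columns kept, and leaving out each array.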

Additional observations from a re-analysis of the deposited data

Results flagged for a closer look

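Several genes differed between YKH104 and YKH107 in a direct test of the difference, in units of log2. YKH104 was lower by -2.76 for ARN1 (adjusted p = 9.56e-05), -2.55 for STE2 (adjusted p = 9.56e-05), -2.37 for HSP26 (adjusted p = 0.00364), -2.30 for NCE103, a carbonic anhydrase gene (adjusted p = 0.00046), and -2.135 for YHR022C (adjusted p = 0.000144). NCE103 had 0.55 and 0.56 on the YKH104 arrays, against 0.84, 0.03 and 0.55 on the self arrays, so its call against YKH105 lay within the self range, whereas it had 2.62 and 3.09 on the YKH107 arrays. YKH104 was higher by 2.41 for OLE1 (adjusted p = 0.000577), 2.32 for FAA4 (adjusted p = 0.000217), 2.04 for RNR1 (adjusted p = 0.000993), 1.92 for ARO5 (adjusted p = 0.000577) and 1.82 for PMI40, the mannose-6-phosphate isomerase gene (adjusted p = 0.000799). For these 5 genes both strains were below YKH105, and YKH107 farther.

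The same test between YKH104 and YKH106 gave -7.28 for SPT3 (adjusted p = 3.98e-06), -1.72 for YNL040W (adjusted p = 0.00324), -1.52 for PHM8 (adjusted p = 0.0321), -1.36 for ARO5 (adjusted p = 0.0322), -1.31 for HXT1 (adjusted p = 0.0321) and 1.335 for SER3 (adjusted p = 0.0321).

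Spots with no gene name entered no comparison, yet some had large ratios. Of 778 such spots with a value on all 5 arrays, 4 lay above 1 and above every self array on both YKH104 arrays and 11 lay below -1 and below every self array, with a lowest mean of -2.23 and a highest of 2.65. Among 5537 spots with a gene the counts were 21 and 85.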

How the results depend on the processing

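Against YKH105, the counts of 356 higher and 390 lower genes became 2 and 6 on the deposited scale, and 651 and 860 when the self array of the next array number was subtracted. Leaving out 1 YKH104 array gave 20 to 44 higher and 52 to 62 lower genes. The counts were 271 and 325 without the dye term, 516 and 496 with arrays against YKH105 alone, 246 and 435 against the self arrays, 358 and 394 with no filter, 336 and 357 with genes measured on every array, and 291 and 296 with the identical columns kept. Of the 746 called genes 8 were called again on the deposited scale, where the median SE was 0.365. Against the self arrays 418 were called again, and after subtracting the next self array 620, all of them with the same sign. Among all 746 genes, called again or not, 1 had the other sign against the self arrays and 2 after subtracting the next self array. Of the 132 named genes that were called, 0 had the other sign under any of these alternatives, and of the 40 that were not called 13 had it under at least 1. Of the 15 highest genes 8 passed without array 1, 10 without array 2 and 14 against the self arrays; of the 15 lowest 8, 10 and 15. For YKH104 minus YKH107, 477 higher and 339 lower genes became 1359 and 4 on the deposited scale, and 107 to 159 and 55 to 75 without 1 YKH104 array. For YKH104 minus YKH106, 1 and 8 became 0 and 1 on the deposited scale (52 genes at an unadjusted p under 0.05 in limma), 0 and 2 with arrays against YKH105 alone, and 0 to 1 and 1 to 6 without 1 array. On the deposited scale the medians of SAGA, amino acid and ergosterol genes were 0.09, 0.01 and 0.09, against -0.01, -0.10 and -0.02 after centring. The causes were not tested. No paired analysis was possible because the replicate numbers do not pair cultures in the labels and, for YKH104, each number is 1 dye orientation, which the model already holds as its dye term. The self array of the next array number was set beside each YKH104 array by the numbers in the titles, whose meaning the labels do not give. Intensities are not analysed here, so signal over background is unknown.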

Other observations

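More of the genes near chromosome ends were called lower in YKH104 than the 7.09% of all genes, a pattern chosen after the values were seen and therefore given without a test. Counting protein-coding genes inward from each end in the supplied gene table, the 280 tested genes at places 1 to 10 held 7 higher and 65 lower genes, and their median log2 was -0.40 and -0.33 on the YKH104 arrays, against 0.03, 0.02 and -0.08 on the self arrays. At places 11 to 20 there were 17 higher and 21 lower genes of 288, with a median fitted log2 of -0.07, and at places 21 to 40 41 higher and 37 lower of 598, with a median of 0.02. The 4315 genes farther in held 291 higher and 266 lower, with a median of 0.02. Chromosome 1 was the chromosome with the lowest median, -0.18 over 89 genes, with 0 higher and 6 lower, and its median was -0.004 over the 52 genes left after the 20 outermost of each arm were removed. The other chromosomes lay between -0.04 and 0.03. PAU and hexose transporter families lie in part in these regions, and their part in the pattern was not tested.

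Genes of NAD synthesis were also picked after their values were seen. Of 11 such genes 10 were tested, with a median of -0.50. Of these 5 were lower in YKH104 and none higher, against 7.09% and 6.47% of all genes. BNA5 had log2 ratios of -2.12 and -1.80 on the YKH104 arrays, against -0.27, -0.19 and -0.28 on the self arrays. TNA1, the nicotinic acid permease gene, had -1.47 and -1.28 on the YKH104 arrays, against 0.14, 0.16 and -0.125 on the self arrays (fitted -1.38, adjusted p = 6.94e-05). BNA1 was at -1.09 (adjusted p = 0.0171), BNA6 at -0.48 (adjusted p = 0.0111) and NMA1, which encodes an adenylyltransferase of the pathway, at -0.52 (adjusted p = 0.0181). BNA4, the kynurenine monooxygenase gene, was at -1.36 with an SE of 0.72 and did not pass (adjusted p = 0.246), and QNS1, the NAD synthetase gene, was at -0.015 (adjusted p = 0.952).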
